A study of Rattus norvegicus with 325 samples.

Results

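Genes of lipid droplets and fat synthesis were followed through 4 muscles of ageing rats. The set was chosen by gene symbol and holds 10 genes: the lipases and their inhibitor (Pnpla2, Lipe, Pnpla3, G0s2), the perilipin coat proteins (Plin2, Plin4, Plin5) and the enzymes that make fatty acids and triglyceride (Dgat2, Fasn, Scd). Of the 10, 9 had a line among the 17315 distinct symbols of the count files. Scd was found under its synonym Scd1 and is called Scd1 here, and Plin4 was not analysed here. Pnpla2 stood on 2 lines, which were summed.

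All libraries came from untreated male rats of the outbred Sprague Dawley strain, with no genetic change. The 4 muscles were the diaphragm, which drives breathing, and 3 from the hind limb: the soleus, made mainly of slow fibres, and the mostly fast gastrocnemius and tibialis anterior. The youngest rats were 6 months old and served as the reference for ages 9, 12, 18, 21 and 24 and for the oldest, 27 months. Groups of 1 muscle and 1 age held 9 to 13 libraries, with 83 from the diaphragm, 73 from the gastrocnemius, 84 from the soleus and 85 from the tibialis anterior. All rats of an age were collected on one day, so age and collection day cannot be told apart. Which libraries share a rat is not given in the labels, and p-values measure the spread between libraries.

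Triglyceride in a muscle fibre lies in droplets coated with perilipins. Pnpla2 encodes adipose triglyceride lipase, which takes the first fatty acid off a triglyceride, and Lipe encodes hormone-sensitive lipase, which acts on the diglyceride that is left. G0s2 is a protein inhibitor of adipose triglyceride lipase, and Pnpla3 is a related droplet protein whose transcript is known to follow feeding. Plin2 coats droplets in most cells and Plin5 in oxidative tissue, where droplets lie against mitochondria. Fasn builds saturated fatty acids, Scd1 puts in the first double bond, and Dgat2 joins a fatty acid to diglyceride as the last step of triglyceride synthesis. In bulk tissue a transcript of fibres, of fat cells between the fibres and of other cells is measured together, and fewer cells of a type and less RNA per cell cannot be told apart.

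The promoters of the 4 members that moved most in at least 1 muscle are given here to show which motifs stand near their starts. They run from 250 bases before to 50 after the start in RefSeq on build GRCr8, 5′ to 3′ on the gene's own strand. Capitals mark a CCAAT box (CCAAT, either strand) or an E-box (CACGTG). The E-box was in 6.42% of all 33469 promoters of this length, and the CCAAT box in 37.5%. The table held 12 promoters for 7 of the members, among them none for Lipe, Dgat2 or Fasn, and Plin2 is shown at its upstream start.
Pnpla3, chr7:117173278-117173577 (+ strand): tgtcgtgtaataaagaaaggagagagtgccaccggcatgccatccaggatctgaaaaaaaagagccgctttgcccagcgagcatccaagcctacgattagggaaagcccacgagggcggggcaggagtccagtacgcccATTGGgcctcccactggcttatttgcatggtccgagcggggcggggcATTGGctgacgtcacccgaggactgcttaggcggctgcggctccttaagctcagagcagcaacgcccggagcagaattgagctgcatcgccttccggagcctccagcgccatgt
G0s2, chr13:107335899-107336198 (- strand): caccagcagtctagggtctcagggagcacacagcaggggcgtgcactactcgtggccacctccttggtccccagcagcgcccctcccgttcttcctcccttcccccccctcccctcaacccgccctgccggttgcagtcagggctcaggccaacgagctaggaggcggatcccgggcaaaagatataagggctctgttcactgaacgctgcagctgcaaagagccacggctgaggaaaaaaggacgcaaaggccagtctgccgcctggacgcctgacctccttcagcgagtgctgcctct
Plin2, chr5:106228969-106229268 (- strand): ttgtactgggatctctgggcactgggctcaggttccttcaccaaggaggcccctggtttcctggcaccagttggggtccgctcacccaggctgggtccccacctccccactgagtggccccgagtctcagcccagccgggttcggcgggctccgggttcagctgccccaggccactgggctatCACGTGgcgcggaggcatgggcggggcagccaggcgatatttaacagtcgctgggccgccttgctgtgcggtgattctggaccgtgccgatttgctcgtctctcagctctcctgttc
Scd1, chr1:253231682-253231981 (- strand): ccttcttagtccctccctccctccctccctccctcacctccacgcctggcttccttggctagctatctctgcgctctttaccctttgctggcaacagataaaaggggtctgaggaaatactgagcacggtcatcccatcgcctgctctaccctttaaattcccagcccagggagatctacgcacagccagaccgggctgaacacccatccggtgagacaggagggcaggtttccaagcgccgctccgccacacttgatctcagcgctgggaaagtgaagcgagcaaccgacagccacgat

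Pnpla3 held 2 CCAAT boxes, the nearer from 64 to 60 bases before the start, and Plin2 held 1 E-box from 67 to 62 bases before it. G0s2 and Scd1 held neither motif in this window. The core of a sterol response element (TCACNCCAC) and the direct repeat DR1 were searched on both strands too, and none of the 12 promoters held either, against 1.12% and 0.0538% of all promoters. These are matches of letters and say nothing of a factor's binding.

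Libraries held 17.6 to 85.3 M counts (median 31.9 M), and all 9 genes passed the filter on low counts in all 4 muscles. Levels below are CPM, counts scaled to a common library size, after TMM scaling, and a gene was called at a limma-voom adjusted p under 0.05 with a change over 1.5-fold. The libraries' running numbers in the labels fell into 3 series, with every gastrocnemius library in the first. In the other muscles the third held all 12-month libraries and 1 library of each muscle at 21 months, and the second held the rest. With all 12-month libraries in the third series and all 6-month libraries in the second, that comparison and the series cannot be told apart in those 3 muscles, nor can the gastrocnemius and its series. Without the 21-month libraries of the third series, 7 of the 36 tests of a member in a muscle were called at 21 months, in place of 8. One library stood apart: in the diaphragm at 6 months, replicate 0 had 147 CPM of Ucp1, the uncoupling protein of brown fat, against at most 0.301 in the other 11, and 231 CPM of Adipoq against at most 101. Its Fasn level was 1630 CPM against 32.7 to 205 CPM in the other 11. Diaphragm results are given with and without it where it changed them.

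At 27 months, 16 of the 36 tests of a member in a muscle were called. Pnpla3 and G0s2 fell in all 4 muscles, though the diaphragm call of G0s2 was lost under 2 alternatives given with its values. Scd1 rose in the 3 hind limb muscles, Plin2 in the gastrocnemius and tibialis anterior, Dgat2 in the diaphragm and soleus, and Fasn in the tibialis anterior. The diaphragm call of Dgat2 lay at the fold threshold and was lost under several alternatives given with its values. Pnpla2, Lipe and Plin5 were not called in any muscle at this age. In the diaphragm 1 of 9 members was called higher and 2 lower, where 3.27% and 4.25% of the genes tested were. In the gastrocnemius the counts were 2 higher and 2 lower, where 15.1% and 7.76% of genes were. In the soleus they were 2 and 2, where 9.21% and 5.78% were, and in the tibialis anterior 3 and 2, where 17.2% and 10.4% were. The median log2 change over the 9 members was -0.05, -0.24, 0.23 and 0.09 in these 4 muscles in turn, beside 0.00, 0.04, 0.02 and 0.02 over all genes tested.

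**Figure D1:**
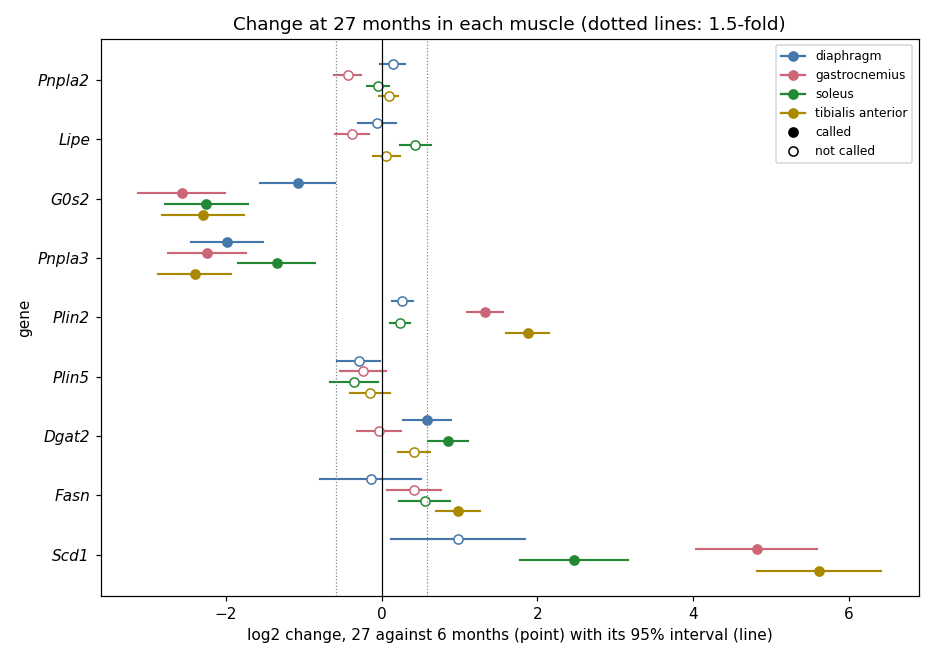
Log2 change from 6 to 27 months (horizontal axis) of each gene (vertical axis) in the 4 muscles by limma-voom, with points for the estimate, lines for the 95% interval, filled points for called changes and dotted lines at 1.5-fold. G0s2 and Pnpla3 are filled and left of 0 in all 4 muscles, and Scd1 reaches 5.61 in the tibialis anterior.

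The level of G0s2, the inhibitor of adipose triglyceride lipase, fell in all 4 muscles. In the tibialis anterior its 12 libraries at 6 months ran from 24.7 to 81.6 CPM (median 46.9) and its 12 libraries at 27 months from 5.78 to 19.3 CPM (median 9.39). In the gastrocnemius the range was 27.4 to 77.4 CPM (median 53.9, n = 10) at 6 months and 5.16 to 21.7 CPM (median 7.48, n = 11) at 27 months. In the soleus it was 16.6 to 57.6 CPM (median 29.2, n = 12) and 4.57 to 11.2 CPM (median 6.03, n = 12). In each of these 3 limb muscles every old library lay below every young one. The log2 changes were -2.29 ± 0.26 (SE), -2.57 ± 0.28 and -2.25 ± 0.27, with limma-voom adjusted p of 2.18e-12, 2.8e-12 and 2.9e-11. In the diaphragm G0s2 ran from 12.7 to 74.2 CPM (median 31.8, n = 12) at 6 months and from 6.74 to 39.8 CPM (median 15.4, n = 12) at 27 months, and the groups overlapped. Its change there was -1.08 ± 0.24 with a limma-voom adjusted p of 0.000167. It was not called there with the clock score as a covariate (-0.57, limma-voom adjusted p = 0.107) or with Bonferroni adjustment (limma-voom adjusted p = 0.346). When the difference from the diaphragm's change was itself tested, it was called in all 3 limb muscles, at -1.55, -1.23 and -1.27 on the log2 scale in the gastrocnemius, soleus and tibialis anterior.

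Pnpla3, the other droplet gene that went down everywhere, was low in the limb muscles at every age. In the gastrocnemius it ran from 1.61 to 4.49 CPM (median 2.97) at 6 months and from 0.217 to 1.21 CPM (median 0.621) at 27 months. In the tibialis anterior the ranges were 1.88 to 4.17 CPM (median 3.22) and 0.333 to 1.69 CPM (median 0.528). Young and old libraries did not overlap in these 2 muscles. The diaphragm had more of it, 7.73 to 29.5 CPM (median 14.2) at 6 months, and 11 of its 12 old libraries, at 1.36 to 8.79 CPM in all 12 (median 3.81), lay below all the young ones. In the soleus 9 of 12 old libraries lay below all the young ones and 1, at 5.01 CPM, above them. Its log2 change was -1.99 ± 0.23 in the diaphragm, and in the limb it was -2.24 ± 0.25 (gastrocnemius), -1.35 ± 0.25 (soleus) and -2.40 ± 0.24 (tibialis anterior), with limma-voom adjusted p from 4.28e-15 to 2.73e-06. Leaving out the diaphragm library with brown fat transcripts, which had the highest Pnpla3 of its group, gave -1.85 there.

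The lipases Pnpla2 and Lipe had smaller changes. Pnpla2 in the gastrocnemius went from 162 to 250 CPM (median 189) at 6 months to 103 to 175 CPM (median 146) at 27 months, with 9 of 11 old libraries below all the young ones. Its log2 change of -0.44 ± 0.09 had a limma-voom adjusted p of 9.86e-06 but stayed under 1.5-fold, and so it was not called. In the other 3 muscles the estimates ran from -0.05 to 0.15, with 95% intervals inside 1.5-fold in each. The difference between gastrocnemius and diaphragm in this change was called, at -0.63 ± 0.11 (limma-voom adjusted p = 2.42e-07). The 2 lines of Pnpla2 were equal in 149 libraries, and how the counting divided reads between them is not given in the sources used here.

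Lipe in the soleus had a median of 32.3 CPM at 6 months and 43.2 CPM at 27 months, and 9 of 12 old libraries were above all the young ones. The log2 change was 0.43 ± 0.10 (limma-voom adjusted p = 9.76e-05), under 1.5-fold. The gastrocnemius had the opposite sign, with medians of 26.5 and 22.0 CPM and a change of -0.38 ± 0.11. The difference between these 2 muscles was 0.80 ± 0.16 (limma-voom adjusted p = 6.62e-06). Lipe passed the fold threshold once, in the gastrocnemius at 24 months, where the median was 15.6 CPM and the change -0.63 ± 0.12 (limma-voom adjusted p = 6.75e-06). In the diaphragm and tibialis anterior the changes at 27 months were -0.05 ± 0.12 and 0.06 ± 0.09.

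Among the coats, Plin2 rose in the 2 fast muscles. In the tibialis anterior it ran from 30.2 to 39.7 CPM (median 35.0) at 6 months and from 67.8 to 244 CPM (median 131) at 27 months. In the gastrocnemius it ran from 18.6 to 31.0 CPM (median 23.9) and from 36.3 to 84.9 CPM (median 67.9). Every old library was above every young one in both. The log2 changes were 1.88 ± 0.14 and 1.33 ± 0.12, with limma-voom adjusted p of 7.39e-21 and 7.14e-16. The soleus had the most Plin2 at 6 months, 115 to 138 CPM (median 129), and reached 99.5 to 191 CPM (median 155) at 27 months. Its change was 0.23 ± 0.07 and that of the diaphragm 0.27 ± 0.07, both with a limma-voom adjusted p under 0.05 and both under 1.5-fold. The change in the tibialis anterior exceeded that in the soleus by 1.66 ± 0.14 and that in the diaphragm by 1.57 ± 0.14.

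Plin5, the coat of oxidative tissue, was highest in the diaphragm, with a median of 22.1 CPM at 6 months against 7.97 to 9.14 CPM in the limb muscles. At 27 months its medians were 20.2 CPM in the diaphragm and 7.52 to 7.91 CPM in the limb muscles. The log2 changes ran from -0.35 ± 0.15 in the soleus to -0.15 ± 0.13 in the tibialis anterior, and none was called. That of the soleus had a limma-voom adjusted p of 0.0492 and was under 1.5-fold. The 95% intervals of the changes reached from -0.66 to 0.11 over the 4 muscles.

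**Figure D2:**
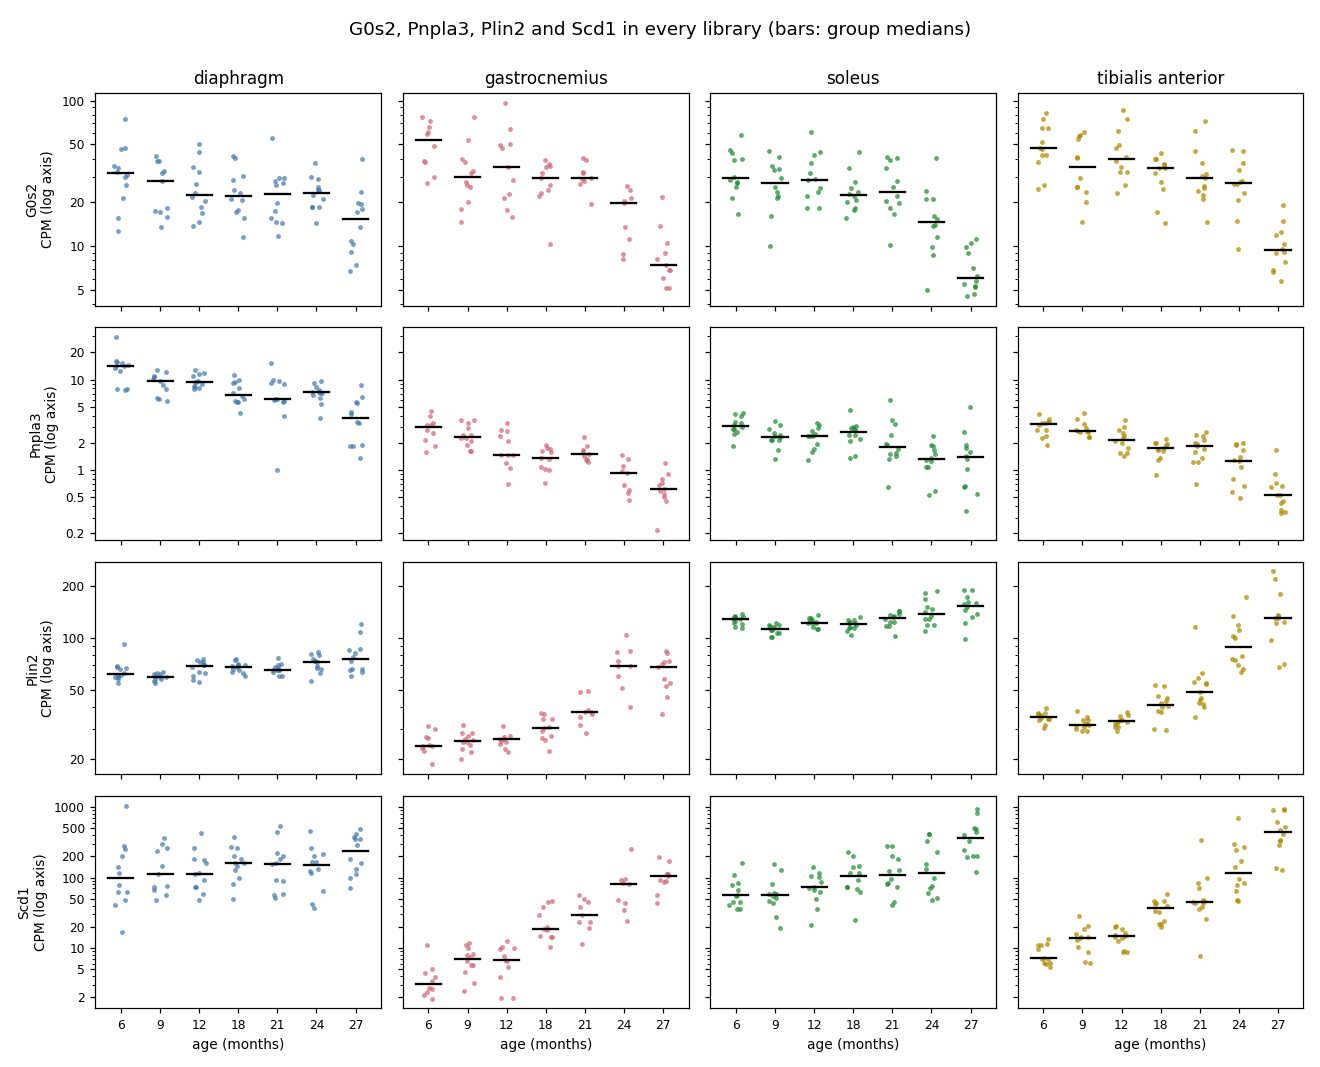
CPM (vertical, log axis) of G0s2, Pnpla3, Plin2 and Scd1 against age in months (horizontal) in the 4 muscles, with 1 point per library and a bar at each group median. In the tibialis anterior the median of Scd1 goes from 7.16 to 443 CPM while that of G0s2 goes from 46.9 to 9.39 CPM.

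Scd1, the desaturase, had the largest change of the 9 members in each limb muscle. In the tibialis anterior it ran from 5.39 to 13.3 CPM (median 7.16) at 6 months and from 128 to 943 CPM (median 443) at 27 months. In the gastrocnemius the ranges were 1.92 to 11.1 CPM (median 3.10) and 44.3 to 192 CPM (median 105). Young and old libraries did not overlap in these 2 muscles, and the ratios of the group means were 59.3 and 26.9. The log2 changes were 5.61 ± 0.40 and 4.81 ± 0.39, with limma-voom adjusted p of 2.43e-21 and 4.07e-17. In the soleus Scd1 went from 35.9 to 162 CPM (median 56.3) to 118 to 930 CPM (median 364), with 11 of 12 old libraries above all the young ones and a change of 2.47 ± 0.35 (limma-voom adjusted p = 4.85e-09). At 6 months the tibialis anterior stood at -2.52 ± 0.44 against the soleus on the log2 scale, and its change exceeded that of the soleus by 3.16 ± 0.57.

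The diaphragm had 16.8 to 1040 CPM of Scd1 (median 97.4) at 6 months and 72.0 to 489 CPM (median 237) at 27 months. The change of 0.98 ± 0.43 missed the threshold (limma-voom adjusted p = 0.0565). The top of the young range was the library with brown fat transcripts, and without it the change was 1.30 ± 0.42 and called (limma-voom adjusted p = 0.00811). Leaving out any of 8 single libraries, this one among them, brought it past the threshold. Scd1 and its paralog Scd2 are close in sequence, and how their shared reads were counted is not given in the sources used here. Scd2 rose by 1.67 ± 0.14 and 2.21 ± 0.19 in the gastrocnemius and tibialis anterior.

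Fasn, which supplies the substrate of Scd1, was called in the tibialis anterior, from 10.1 to 24.1 CPM (median 14.7) at 6 months to 20.2 to 41.3 CPM (median 30.1) at 27 months. In all, 10 of the 12 old libraries lay above all the young ones, with a change of 0.98 ± 0.14 (limma-voom adjusted p = 3.98e-09). With the adipocyte marker score as a covariate this change was 0.26 and not called. In the soleus the medians were 55.1 and 70.3 CPM and the change of 0.55 ± 0.17 was just under 1.5-fold. In the gastrocnemius it was 0.42 ± 0.18. In the diaphragm the change was -0.14 ± 0.33 with all libraries, and 0.22 without the library with brown fat transcripts. With all libraries, edgeR's quasi-likelihood test gave -0.99 and DESeq2 -0.98 there, and both called it. Neither was run without the library with brown fat transcripts.

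Dgat2 rose in the soleus from 15.7 to 40.4 CPM (median 23.1) to 28.7 to 55.9 CPM (median 44.7), and 9 of 12 old libraries lay above all the young ones. The change was 0.86 ± 0.13 (limma-voom adjusted p = 2.91e-08). In the diaphragm the medians were 50.8 and 76.3 CPM, and all 12 old libraries were above the young median. The change of 0.59 ± 0.15 (limma-voom adjusted p = 0.00116) lay at the fold threshold, and it fell under it, at 0.54 to 0.58, when any of 12 single libraries was left out. With the clock score as a covariate it was 0.0656 (limma-voom adjusted p = 0.785), and edgeR (0.46) and DESeq2 (0.48) did not call it, nor did limma-voom with Bonferroni adjustment. With replicate numbers as a block it was 0.58 and not called. It was 0.76 without the library with brown fat transcripts, whose 173 CPM was the top of the young range. In the gastrocnemius the change was -0.03 ± 0.14. Its difference from the diaphragm was -0.67 ± 0.19, the soleus exceeded it by 0.88 ± 0.20, and both differences were called.

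**Figure D3:**
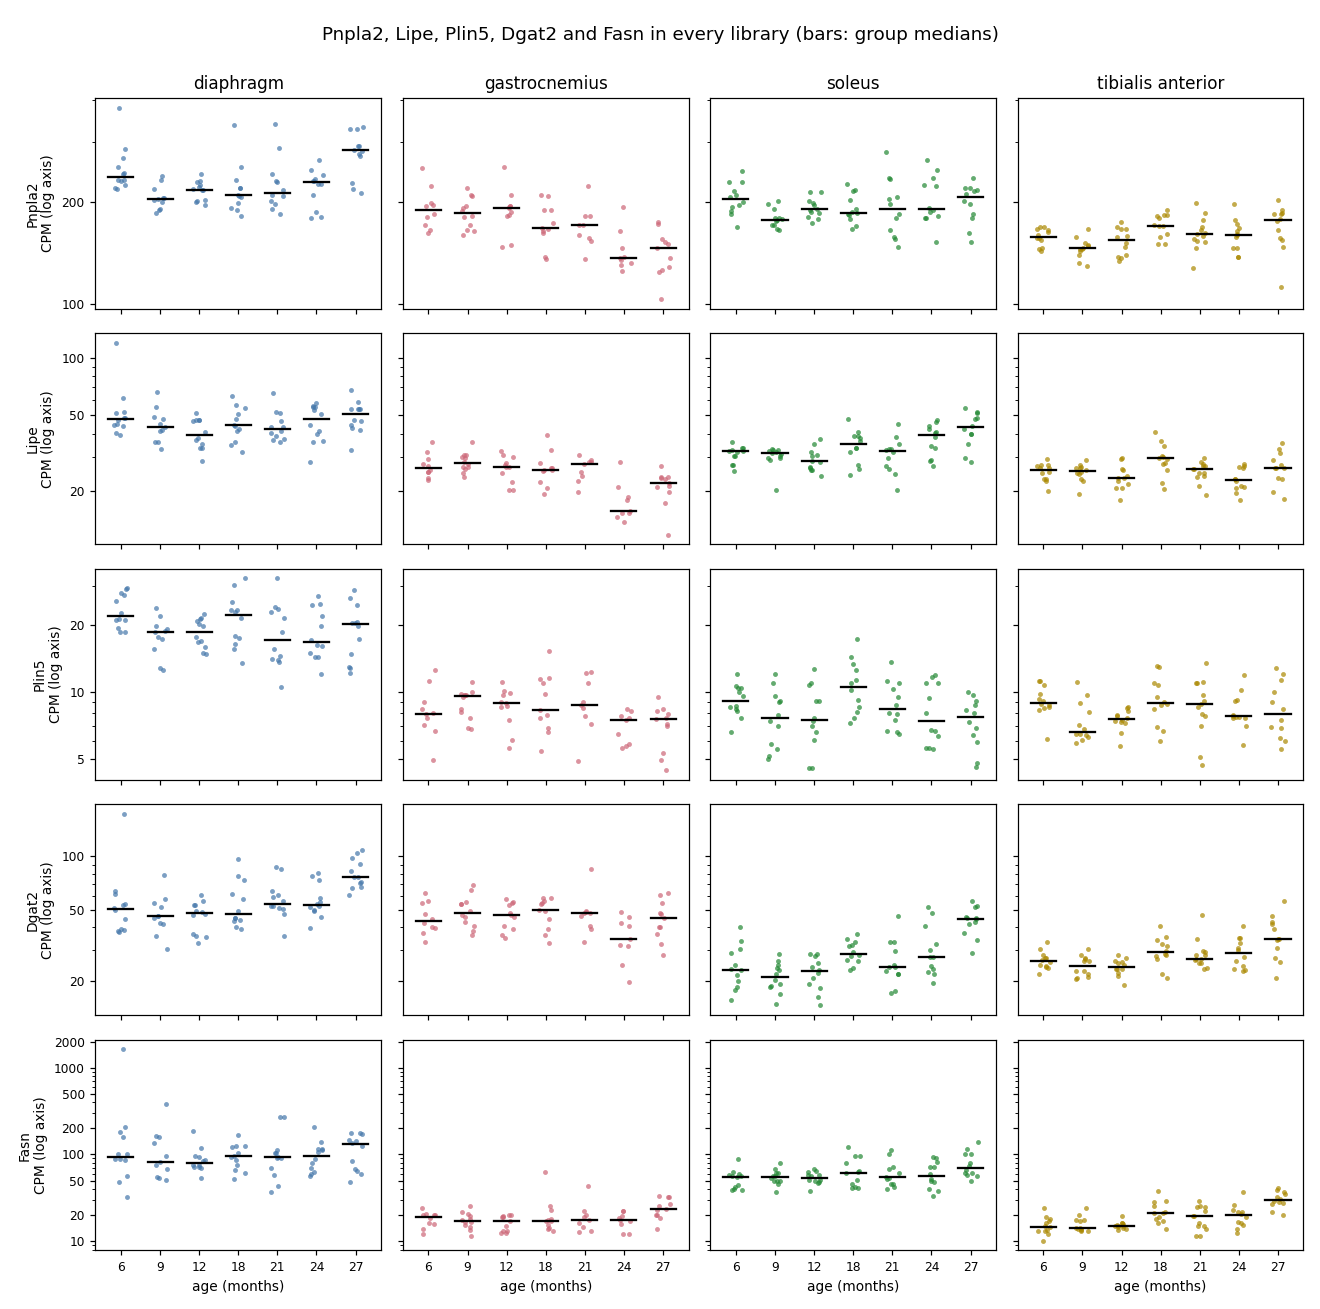
CPM (vertical, log axis) of Pnpla2, Lipe, Plin5, Dgat2 and Fasn against age in months (horizontal) in the 4 muscles, with 1 point per library and a bar at each group median. The highest Fasn point, 1630 CPM, is the 6-month diaphragm library with brown fat transcripts, and the soleus Dgat2 median goes from 23.1 to 44.7 CPM.

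The ages between 6 and 27 months show when the changes came. At 9 months 0 of the 36 tests were called by limma-voom, and 0 by edgeR and DESeq2, while 9 had an unadjusted p under 0.05. Over all genes 0.0962% were called at 9 months. At 12 months 1 was called, Pnpla3 in the gastrocnemius (-0.72 ± 0.20), where 0.491% of all tests were. At 18 months 7 were called where 3.7% of all tests were, at 21 months 8 where 4.12% were, and at 24 months 13 where 10.6% were.

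Scd1 was called from 18 months on in the gastrocnemius and tibialis anterior and from 24 months in the soleus. Its median in the tibialis anterior was 14.1 CPM at 9 months, 14.6 at 12, 37.0 at 18, 44.3 at 21 and 118 at 24 months. Pnpla3 was called from 12 months on in the gastrocnemius, from 18 in the diaphragm and tibialis anterior and from 21 in the soleus. G0s2 was called at every age from 18 months in the tibialis anterior, at 18, 24 and 27 in the gastrocnemius and at 24 and 27 in the soleus, but in the diaphragm at 27 months alone. Plin2 passed from 21 months in the gastrocnemius and from 24 months in the tibialis anterior.

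Trends over all ages were classed by BIC as linear or logistic, and the term age-related is used where a trend and at least 1 call came together. In the diaphragm 3 members were age-related, where 6.7% of the genes tested were, and in the soleus 4, where 12.6% were. The gastrocnemius had 5, where 23.3% of genes were, and the tibialis anterior 5, where 26.8% were. In the diaphragm Pnpla3 and G0s2 went down and Dgat2 up in a linear course. Pnpla3 and Scd1 were linear in the gastrocnemius and soleus. The late class, with an inflection after 21 months, took G0s2 in the 3 limb muscles (inflections at 27, 25 and 26.75 months in the gastrocnemius, soleus and tibialis anterior), and Plin2 in the gastrocnemius (21.25 months) and tibialis anterior (23.75 months). Lipe in the gastrocnemius (21.75 months), Dgat2 in the soleus (27 months) and Pnpla3 (26 months) and Scd1 (27 months) in the tibialis anterior were late too. The BIC margin over a linear course, which had to pass 2, was 2.42 for this Dgat2 and 2.06 for this Pnpla3. Fasn in the tibialis anterior rose in a linear course. An inflection at 27 months is the edge of the ages searched.

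Levels of these genes at the youngest age were compared between the muscles. At 6 months 30 of the 54 member tests over the 6 muscle pairs were called. For the diaphragm 6 of 9 members differed from the gastrocnemius, where 37.3% of genes did, 7 from the soleus, where 23.9% did, and 7 from the tibialis anterior, where 35.1% did. The soleus differed from the gastrocnemius in 5 of 9 (45.4% of genes) and from the tibialis anterior in 4 (42.9%). Between the 2 fast muscles 1 of 9 differed, Dgat2, where 17.3% of genes did. The counts for the pairs without the diaphragm lay near or under the shares over all genes and are not a result about the members. Without the library with brown fat transcripts 26 of the 54 were called. Between diaphragm and soleus the calls of Lipe and Scd1 were then lost, and between diaphragm and tibialis anterior those of Lipe and Dgat2.

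The order of the muscles was not the same for all members. Fasn medians at 6 months were 94.1 CPM (diaphragm), 55.1 (soleus), 19.2 (gastrocnemius) and 14.7 (tibialis anterior), and the last 2 did not differ by the test (-0.19 ± 0.27 on the log2 scale). Scd1 was also higher in the diaphragm and soleus than in the fast muscles, with 97.4 and 56.3 CPM over 7.16 and 3.10 CPM, and the tibialis anterior and gastrocnemius did not differ by the test (1.26 ± 0.66). Plin2 was highest in the soleus, 0.99 ± 0.10 above the diaphragm on the log2 scale and 2.06 ± 0.11 above the gastrocnemius. G0s2 was higher in the fast muscles than in both others, with medians of 53.9 and 46.9 CPM in the fast muscles and 31.8 and 29.2 CPM in the diaphragm and soleus. Of the spread of log2 CPM over all libraries, 77.5% lay between muscles for Fasn and 4.52% for G0s2, and 54.1% lay between the ages of a muscle for G0s2 and 3.32% for Fasn.

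The change from 6 to 27 months differed between muscles in 18 of the 54 tests of a member and a muscle pair. The counts of 9 members were 5 for diaphragm and gastrocnemius (21.6% of genes), 2 for diaphragm and soleus (11.9%), 4 for diaphragm and tibialis anterior (20.3%), 4 for gastrocnemius and soleus (14.5%) and 3 for soleus and tibialis anterior (15.8%). For the 2 fast muscles 0 of 9 were called by limma-voom, where 7.32% of genes were. In that pair 4 of 9 had an unadjusted p under 0.05 and edgeR called 1. For tibialis anterior minus gastrocnemius the log2 differences were 0.53 for Pnpla2, 0.56 for Plin2 and 0.44 for Lipe. Their limma-voom adjusted p were 4.76e-05, 0.00189 and 0.027, and they missed a call because they stayed under 1.5-fold.

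Other genes of droplets and triglyceride were counted from lists by role. Of the wider lists of 51 genes, 49 were in the files. At 27 months 0 rose and 2 fell of 47 tested in the diaphragm, where 3.27% and 4.25% of all genes did, and 7 rose and 7 fell of 47 in the gastrocnemius, where 15.1% and 7.76% did. In the soleus 8 rose and 5 fell of 48, where 9.21% and 5.78% of all genes did, and in the tibialis anterior 9 and 5 of 47, where 17.2% and 10.4% did. The median log2 change over the lists was -0.05, -0.01, -0.05 and -0.05 in these muscles in turn. The counts in the diaphragm and tibialis anterior, and of genes that rose in the gastrocnemius, lay near or under the shares over all genes and are not a result about the lists. Among coat and lipolysis genes, Cidea, a droplet fusion protein, rose by 3.62 ± 0.36 (tibialis anterior), 2.47 ± 0.20 (gastrocnemius) and 0.82 ± 0.11 (soleus). Cidec and Plin1, droplet proteins of fat cells, rose by 1.65 and 1.60 (tibialis anterior), 1.23 and 1.13 (gastrocnemius) and 1.41 and 1.30 (soleus). Fitm2, which helps droplets bud from the endoplasmic reticulum, fell in all 4 muscles, with changes of -0.93 (diaphragm), -1.07 (gastrocnemius), -0.87 (soleus) and -1.05 (tibialis anterior), and was chosen after its values were seen.

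In triglyceride synthesis, Lpin1, a phosphatidate phosphatase, fell, with changes of -1.87 ± 0.15 (tibialis anterior), -1.84 ± 0.12 (gastrocnemius) and -0.78 ± 0.08 (soleus), while its relative Lpin2 rose by 1.16, 0.79 and 0.86 in the same muscles. Acsl3, an acyl-CoA synthetase found on droplets, rose by 1.45 in the gastrocnemius, 1.02 in the tibialis anterior and 0.80 in the soleus. Of the 14 genes of fatty acid synthesis 2 rose and 1 fell in each fast muscle, near the shares over all genes of 15.1% and 7.76% in the gastrocnemius and 17.2% and 10.4% in the tibialis anterior. Thrsp, a lipogenic protein, rose by 1.94 and 2.23 in these muscles, and Fads1, a desaturase of longer fatty acids, rose by 0.94 in the soleus. Elovl6, an elongase chosen after its values were seen, had a called change of -0.83 in the diaphragm and was not called without the library with brown fat transcripts.

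Of 11 regulators of lipogenesis 3 fell and 0 rose in the gastrocnemius, where 7.76% and 15.1% of all genes did. In the soleus 2 fell and 1 rose, where 5.78% and 9.21% did, and in the diaphragm 0 were called. In the tibialis anterior 2 fell and 1 rose, where 10.4% and 17.2% did. The counts that rose, and the count that fell in the tibialis anterior, lay near or under these shares and are not a result about the list. Mlxipl, which encodes the carbohydrate sensor ChREBP, fell, with changes of -1.23 ± 0.12 (gastrocnemius), -1.38 ± 0.11 (soleus) and -1.11 ± 0.13 (tibialis anterior). Srebf1, a sterol-regulated factor that drives Fasn and Scd1, fell, at -0.99 and -0.74, in the gastrocnemius and tibialis anterior. Scap, its escort, rose by 0.76 in the tibialis anterior.

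**Figure D4:**
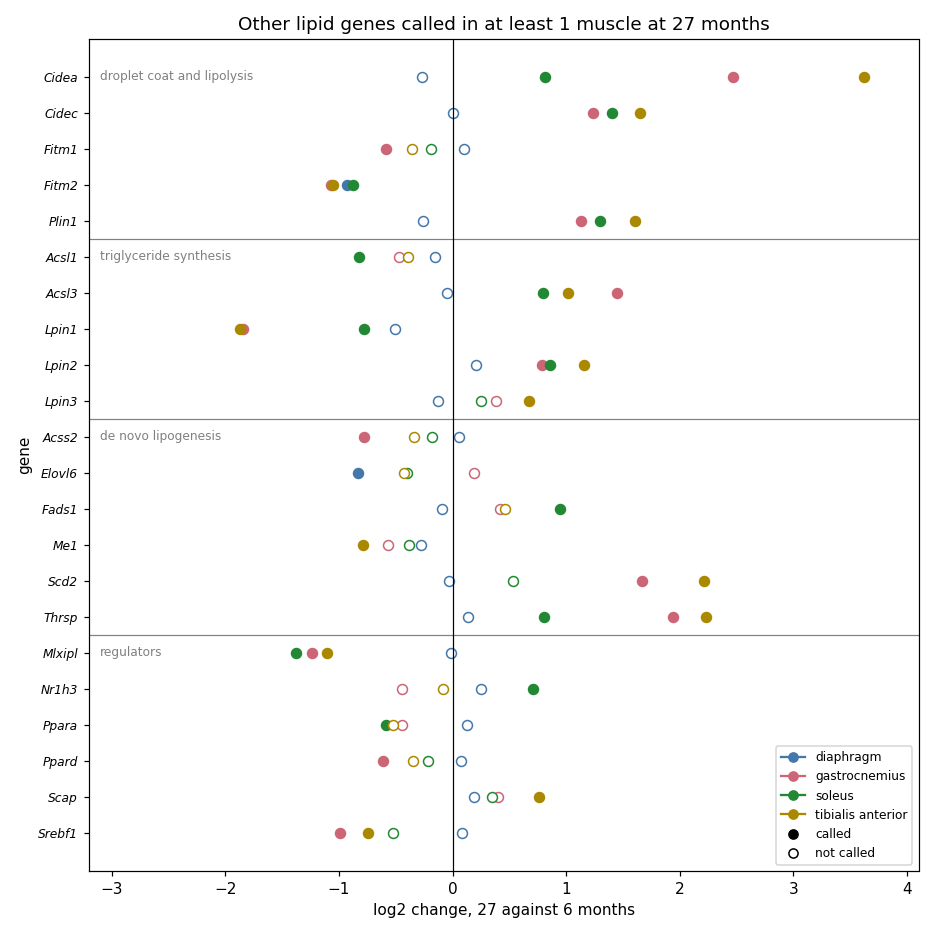
Log2 change from 6 to 27 months (horizontal axis) of the genes of the wider lipid lists called in at least 1 muscle (vertical axis, grouped by list), with a color per muscle and filled points for called changes. Cidea in the tibialis anterior lies farthest right at 3.62, and Lpin1 farthest left at -1.87.

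Marker genes of cell types, fibre types and muscle states were set beside these results. Of 9 adipocyte markers 8 rose at 27 months in each limb muscle, and in the diaphragm 0 rose and 1, Retn, fell. Over all genes tested, 3.27% rose and 4.25% fell in the diaphragm, and 15.1% and 7.76% in the gastrocnemius. In the soleus 9.21% rose and 5.78% fell, and in the tibialis anterior 17.2% and 10.4%. Cidec and Plin1 are in this list and in the wider list. The summed adipocyte level ran from 10.6 to 36.6 CPM at 6 months and from 41.5 to 68.1 CPM at 27 months in the tibialis anterior, from 13.0 to 66.7 and from 40.7 to 93.9 CPM in the gastrocnemius, from 45.7 to 231 and from 212 to 571 CPM in the soleus, and from 48.7 to 689 and from 97.6 to 360 CPM in the diaphragm. With this score as a covariate Scd1, G0s2, Pnpla3 and Plin2 kept each call they had in the limb muscles, and the change of Scd1 in the soleus was 1.19.

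All 7 genes that muscle turns on without its nerve, acetylcholine receptor subunits and Musk among them, rose in all 4 muscles. Their summed level went from 45.4 to 69.1 CPM to 504 to 2194 CPM in the tibialis anterior and from 71.0 to 92.3 CPM to 381 to 1303 CPM in the gastrocnemius. It went from 213 to 263 CPM to 380 to 1609 CPM in the soleus and from 83.4 to 134 CPM to 151 to 660 CPM in the diaphragm. With this score as a covariate, a fit added after the data were seen, the change of Plin2 was -0.33 in the gastrocnemius and -0.30 in the tibialis anterior, opposite in sign to the change without it. In that fit 0 of 9 members were called by limma-voom in the gastrocnemius and tibialis anterior and 1 in the soleus. Most genes lost their call in it: 37 of 11865 tested were called in the gastrocnemius (2708 without the covariate), 211 of 11754 in the tibialis anterior (3245) and 371 of 12175 in the soleus (1825), so the loss is not a result about the members. Macrophage markers rose in 5 of 6 genes in each fast muscle, where 15.1% (gastrocnemius) and 17.2% (tibialis anterior) of all genes did. They rose in 1 of 6 in the soleus (9.21% of all genes) and 0 of 6 in the diaphragm (3.27%). Of 11 clock genes 6 rose and 3 fell in the diaphragm, 4 and 3 in the gastrocnemius, 6 and 3 in the soleus. In the tibialis anterior 5 rose and 4 fell. Of 5 fasting response genes 2 rose and 1 fell in the diaphragm, 2 rose in the soleus, 3 in the gastrocnemius and 4 in the tibialis anterior. Kdr, 1 of 6 endothelial markers, fell in each limb muscle. Fast fibre genes rose in 6 of 6 in the soleus and fell in 3 of 6 in each fast muscle. In each of the soleus and tibialis anterior 1 slow fibre gene fell. Beside all these marker counts, 3.27% of all genes rose and 4.25% fell in the diaphragm, and 15.1% and 7.76% in the gastrocnemius. The shares were 9.21% and 5.78% in the soleus, and 17.2% and 10.4% in the tibialis anterior. A count of 1 gene of a list is too small to set apart from the shares over all genes and is not a result about that list. Liver transcripts, which such muscles should lack, ran from 6.60 to 1589 CPM at 6 months in the soleus and 3 of 5 fell there. At 27 months they ran from 0.995 to 2218 CPM in the soleus. In the tibialis anterior liver transcripts ran from 0.0762 to 0.316 CPM at 6 months and from 0.114 to 351 CPM at 27 months. The gastrocnemius had 0.126 to 0.620 CPM and 0.177 to 120.5 CPM at these ages, and the diaphragm 1.85 to 57.1 CPM and 2.95 to 27.5 CPM. The part of these markers in the members' changes was not tested.

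Within an age, the libraries with more adipocyte transcript also had more of some members. Over the 36 pairs of a member and a muscle, 10 correlations with the adipocyte score were positive at an adjusted p under 0.05, and 0 were negative. The share of all genes with such a correlation was not computed, so this count does not set the members apart from other genes. Fasn was among them in all 4 muscles, with Pearson's r of 0.62 for the diaphragm (n = 83, Spearman's rho 0.55), 0.42 for the gastrocnemius (n = 73, rho 0.45), 0.51 for the soleus (n = 84, rho 0.48) and 0.53 for the tibialis anterior (n = 85, rho 0.48). Permutation within ages gave adjusted p of 4.5e-05 for Pearson's r in 3 muscles and 0.0014 in the gastrocnemius, and 6e-05 to 0.0008 for rho. In those 3 muscles the unadjusted permutation p for r was 1e-05, the smallest that 100000 resamples allow. Without the 2 libraries farthest in score, r was 0.52, 0.41, 0.49 and 0.51. The others were Lipe, Dgat2, Pnpla2 and Scd1 in the diaphragm (r of 0.76, 0.64, 0.46 and 0.45) and Lipe and Scd1 in the soleus (0.54 and 0.49). Without the 2 libraries farthest in score these were 0.73, 0.57, 0.42 and 0.31 in the diaphragm and 0.53 and 0.50 in the soleus.

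Plin2 had positive correlations with the denervation score in all 4 muscles, a relation looked at after the data were seen. Its r with this score within ages was 0.63 for the diaphragm (rho 0.43), 0.71 for the gastrocnemius (rho 0.59), 0.69 for the soleus (rho 0.50) and 0.80 for the tibialis anterior (rho 0.66). Each had a permutation adjusted p of 7.2e-05 for r over 36 relations, and 0.00012 to 0.0026 for rho. The unadjusted permutation p for r was in each case 1e-05, the smallest the resamples allow. Without the 2 farthest libraries r was 0.47, 0.68, 0.67 and 0.80. Of the 36 relations with this score 6 were positive and 5 negative at an adjusted p under 0.05 for r. The share over all genes was not computed here either, so these counts do not set the members apart. Scd1 had r of 0.74 in the tibialis anterior and 0.44 in the gastrocnemius, and Pnpla3 had -0.48 and -0.31 in the same muscles. Pnpla2 had -0.33 in the gastrocnemius (permutation adjusted p = 0.028, and 0.23 for rho) and -0.32 in the tibialis anterior (permutation adjusted p = 0.032), and G0s2 had -0.36 in the tibialis anterior (permutation adjusted p = 0.0031).

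**Figure D5:**
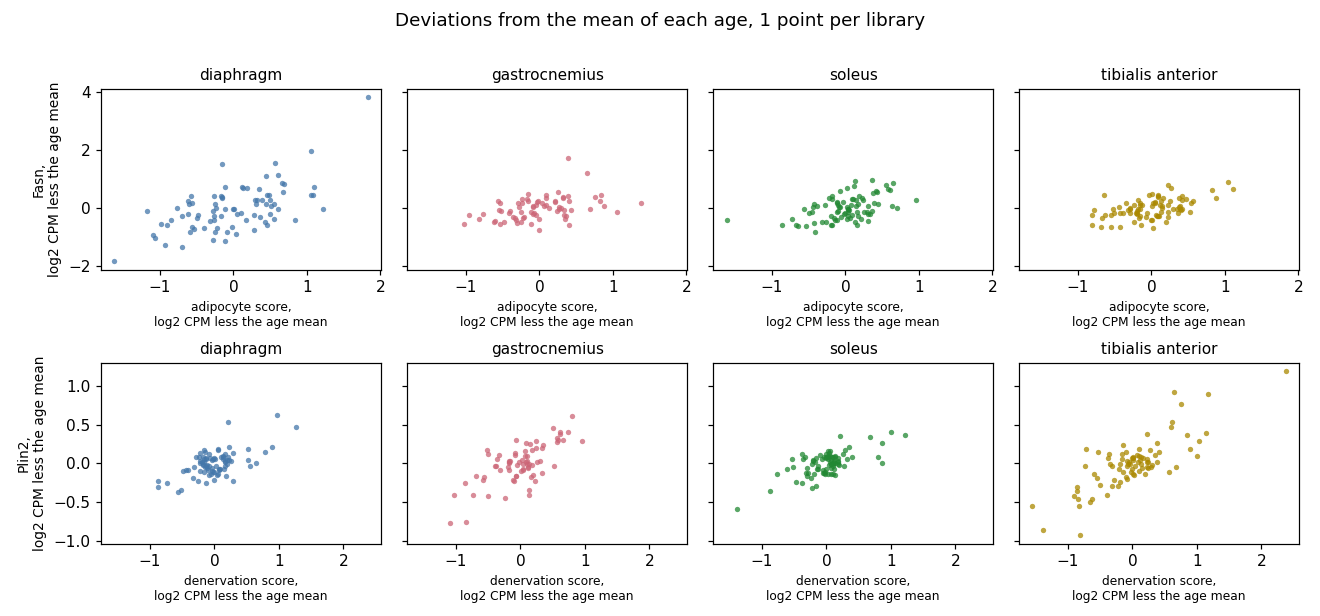
Deviation of each library from the mean of its age, in log2 CPM, for Fasn against the adipocyte score (top) and Plin2 against the denervation score (bottom) in the 4 muscles, with the score on the horizontal axis and 1 point per library. Both rise together in every panel, and r runs from 0.42 to 0.62 in the top row and from 0.63 to 0.80 in the bottom row.

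The genes whose course over the 28 group means was most like that of a member, each centred within its muscle and out of 9898 compared, were as follows. Scd1 lay closest to Faah (r = 0.987), a fatty acid amide hydrolase, and Plxna3 (0.981). Plin2 lay closest to Hmgn2 and Cdc42se2 (0.985 and 0.983), G0s2 to Slc41a3 and Slc9a2 (0.967 and 0.963), and Pnpla3 to Mcart1 and Tarsl2 (0.951 and 0.947). Fasn lay closest to Dnmt1 and Sardh (0.928 and 0.916), Dgat2 to Bloc1s1 and Trappc9 (0.865 and 0.864), and Lipe to Map1lc3a and Fam43a (0.879 and 0.842). Pnpla2 and Plin5 had lower values, with 0.801 for Lrg1 and 0.739 for Mrpl41 as their highest. These values describe shared courses over the same libraries.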

How the data were processed

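RNA was depleted of ribosomal RNA and made into strand-specific libraries, and the authors aligned reads with ArrayStudio to the rat genome with their own gene model built on RefSeq. The deposited values were raw counts per gene, 17.6 to 85.3 M per library. Groups were the muscle and age in each sample's label. Within each muscle, genes were filtered (filterByExpr, minimum count 10, minimum total 15), scaled by TMM (edgeR 4.0.16) and fitted with limma-voom (limma 3.58.1, R 4.3.3), each age against 6 months. A call needed a Benjamini-Hochberg adjusted p under 0.05 over all genes tested and a change over 1.5-fold. Differences between muscles came from a joint fit of all 4. Trends needed a BIC lower by 6 than no trend, and by 2 for a logistic over a linear course, with inflections searched in steps of 0.25 months. Correlations used deviations from age means and 100000 permutations. The steps were tested on simulated data. edgeR's quasi-likelihood test, DESeq2 1.42.0, other scalings, filters, thresholds, covariates and single omitted libraries were alternatives.

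The members and lists were chosen with earlier results of these data known. Named besides the members are up to 3 called genes per wider list with the largest change, the 2 genes most like each member, the markers and genes a result turns on. Plin4 was not analysed here. No gene lengths were used, so levels are not compared between genes.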

Additional observations from a re-analysis of the deposited data

Results flagged for a closer look

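Within groups of 4 to 10 libraries, 3 groups per member, the highest or lowest library was compared with the rest by Dixon's criterion, which chance alone meets in about 5% of groups. Of the 27 groups tested, all in the gastrocnemius, 5 met it, each with a high library. At 21 months, replicate 5 had 84.9 CPM of Dgat2 and 43.4 CPM of Fasn. At 24 months, replicate 0 had 28.4 CPM of Lipe and replicate 7 had 251 CPM of Scd1. At 6 months, replicate 7 had 11.1 CPM of Scd1.

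The change from 6 to 27 months differed between 2 muscles, by limma-voom's test of the difference itself, in 18 cases. For gastrocnemius minus diaphragm the log2 difference was -0.63 for Pnpla2, -1.55 for G0s2, 1.01 for Plin2, -0.67 for Dgat2 and 3.75 for Scd1. For soleus minus diaphragm it was -1.23 for G0s2 and 1.43 for Scd1. For tibialis anterior minus diaphragm it was -1.27 for G0s2, 1.57 for Plin2, 1.06 for Fasn and 4.59 for Scd1. For soleus minus gastrocnemius it was -1.10 for Plin2, 0.80 for Lipe, 0.88 for Dgat2 and -2.33 for Scd1. For tibialis anterior minus soleus it was -1.04 for Pnpla3, 1.66 for Plin2 and 3.16 for Scd1. Without the diaphragm library with brown fat transcripts, Scd1 in soleus minus diaphragm was 1.13 and no longer called. Fasn in tibialis anterior minus diaphragm was then 0.72 and still called.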

How the results depend on the processing

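Over the alternatives, 140 of 161 group counts stayed within 1.5 times their value, and the cause of the others was not tested. Bonferroni adjustment left 1 member called in the diaphragm at 27 months, 0 at 12, 4 at 18, 3 at 21 and 8 at 24 months over the 4 muscles, and 9 differences between muscles. A threshold of 2-fold left 0 at 12, 3 at 18, 3 at 21 months, 22 tests of a wider list gene in a muscle and 19 differences at 6 months. Total-count scaling left 0 at 12 months, and it moved the median of all genes at 27 months to 0.043, 0.321, 0.164 and 0.337 (diaphragm, gastrocnemius, soleus, then tibialis anterior). Against that shift it turned Plin5 (0.0412) and Dgat2 (0.25) in the gastrocnemius, Pnpla2 in the soleus (0.0993) and Plin5 in the tibialis anterior (0.18) positive. A clock covariate left 1 call in the diaphragm, Pnpla3. The denervation covariate, added after the data were seen, left 0, 1 and 0 calls in the gastrocnemius, soleus and tibialis anterior. Over the 4 muscles it left 0 at 12, 1 at 18, 1 at 21 and 1 at 24 months, and 4 tests of a wider list gene. Genes called of all tested went from 2708 to 37, 1825 to 371 and 3245 to 211 in the gastrocnemius, soleus and tibialis anterior. This covariate turned the sign of Plin2 (-0.21, -0.33, -0.38 and -0.30 in the 4 muscles) and Plin5 (0.29, 0.15 and 0.11 in the limb muscles). It also turned that of Pnpla2 (0.12 in the gastrocnemius and soleus), and of Lipe (0.13) and Dgat2 (0.69) in the gastrocnemius. Of these estimates only that of Plin2 in the soleus had a limma-voom adjusted p under 0.05 (0.00222). Quality weights gave 0.0271 for Lipe and 0.16 for Fasn in the diaphragm and 0.11 for Dgat2 in the gastrocnemius. The adipocyte covariate gave -0.0746 for Fasn in the soleus and the fasting covariate -0.19 for Lipe in the tibialis anterior.

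With 1 library left out at a time, the calls at 27 months ranged from 2 to 4 in the diaphragm, 4 to 4 in the gastrocnemius, 4 to 5 in the soleus and 5 to 5 in the tibialis anterior. Without diaphragm replicate 0 of 6 months, Lipe (0.0776) and Fasn (0.22) changed sign there (ranges over all omissions -0.0976 to 0.0776 and -0.31 to 0.22). Without this library 26 differences at 6 months, 17 differences in change and 42 tests of a wider list gene in a muscle were called. Of the 36 tests of a member in a muscle, 17 stayed age-related. Dgat2 in the gastrocnemius, near 0, ranged from -0.0835 to 0.0408 and changed sign in 4 omissions (0.0108, 0.0408, 0.0056 and 0.00108). Fasn in the soleus was called in 3 of 24 omissions, at 0.59 to 0.62.

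Equal replicate numbers were not given as the same rat. Among same-numbered libraries of 2 muscles, 247 of 468 pairs had deviations correlated above 0.1, and in 181 the library was most like its own number. The medians were 0.0116 to 0.194 for equal numbers and -0.0234 to -0.0125 for others. This is a hint from the data that numbers tie muscles of a rat, but not every pair passed 0.1. Within a muscle, 9 of 46 pairs of 6 and 27 months passed it. With the replicate block, 2, 4, 4 and 5 members were called at 27 months (same order of muscles), and 31 differences at 6 months and 19 in change.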
